A study of Mus musculus with 6 samples.

Results

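Liver gene expression of wild-type (WT) mice on doxycycline (Dox) chow was set against that of WT mice refed for 2 h. The groups came from FVB mice aged 10 weeks, and each was a pool of liver RNA read on 1 Illumina bead array. How many mice each pool held was not stated by the labels. The 24 h and 48 h Dox groups had been on Dox200 chow for those times and went without food for 6 h before the liver was taken. The refed group has no Dox in its labels, and the labels do not state how long it fasted before refeeding. Dox, the chow, the time on it and the feeding state therefore differed together in this comparison and cannot be told apart. The study has 3 further arrays, WT mice fasted for 24 h and the transgenic line LIXs after 24 h and 48 h of the same chow, whose values stand beside the results. LIXs mice carry TRE-Xbp1s, a Dox-responsive transgene for Xbp1s, the transcription factor made from spliced Xbp1 RNA. The labels do not name the promoter that drives its transactivator.

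A gene was a member of the comparison when it had a name, was represented by its brightest probe and exceeded an intensity of 129, the detection level, on at least 1 of the 3 arrays. This held for 8733 of 19057 named genes. The side of a gene was then read from the deposited intensities, and 3415 genes (39.1%) were higher on both Dox arrays than on the refed array, 3487 (39.9%) were lower on both, and the other 1831 (21%) differed in sign between the times. The side is what the rule asked for and is a description. Each group had 1 array, so no difference has a replicate check, and no test was made. At the edge of the rule, the brightest of the 3 intensities was 129.001 for Tcp10a, just inside, and 128.998 for Olfr437, just outside.

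The arrays held liver RNA by their defining transcripts. Transthyretin (Ttr), apolipoprotein A1 (Apoa1), transferrin (Trf) and fetuin A (Ahsg) read between 31636 and 43615 on the 3 arrays, whereas the probe for albumin (Alb) was dim, with 137, 130 and 150 on the 24 h, 48 h and refed arrays. Between 7525 and 7597 named genes were above the detection level on each of the 6 arrays. Over the 8733 measured genes, log2 intensities of the 24 h and 48 h Dox arrays correlated with r = 0.985, and those of the refed array correlated with them at 0.961 and 0.966, and at 0.984 with the array labelled LIXs at 48 h. These are descriptions over genes of arrays that share a platform and a normalization. Genes that Xbp1s is known to raise were lower on the arrays labelled LIXs than on those labelled WT at the same time on Dox, as given below for the lists of the endoplasmic reticulum, so genotype names here are those of the labels. The expression "Dox arrays" stands for the 2 arrays labelled WT and Dox.

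The endoplasmic reticulum (ER) is where the liver folds, glycosylates and exports its plasma proteins. Load on the ER activates the unfolded protein response, in which Xbp1s and ATF6 raise chaperones, translocation and degradation genes, while the kinase PERK acts through ATF4 and CHOP on amino acid and redox genes. Feeding is known to raise insulin in the blood and protein synthesis in the liver. Fasting is known to raise gluconeogenesis and, through the nuclear receptor PPARA, fatty acid oxidation. The liver also answers inflammatory cytokines with acute phase proteins, through STAT3 and NF-kB.

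Differences were computed on log2 values after background correction, and a gene was counted at 2-fold when the smaller of its differences from the refed array, at 24 h and at 48 h, was at least 2-fold. By this measure 260 genes (2.98% of those measured) were at least 2-fold higher on both Dox arrays and 293 (3.36%) at least 2-fold lower. At 24 h alone 538 genes (6.16%) were higher and 565 (6.47%) lower by 2-fold, and at 48 h alone 569 (6.52%) and 500 (5.73%). On values without background correction the counts past 2-fold on both arrays were 71 higher and 102 lower. Between the Dox arrays themselves, 197 genes (2.26%) were at least 2-fold higher and 106 (1.21%) lower at 48 h than at 24 h. Over all genes the SD of the differences was 0.69 (log2) at 24 h and 0.66 at 48 h against refed, and 0.46 between the Dox arrays. The last of these is the closest these arrays come to a spread between samples, and it also holds the time on Dox. At the 2-fold limit Mia3 lay just inside on the higher side and Dusp6 on the lower side, and just outside lay Car1, with a smaller log2 difference of 0.999, and Serpinb12, with -0.998.

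**Figure D1:**
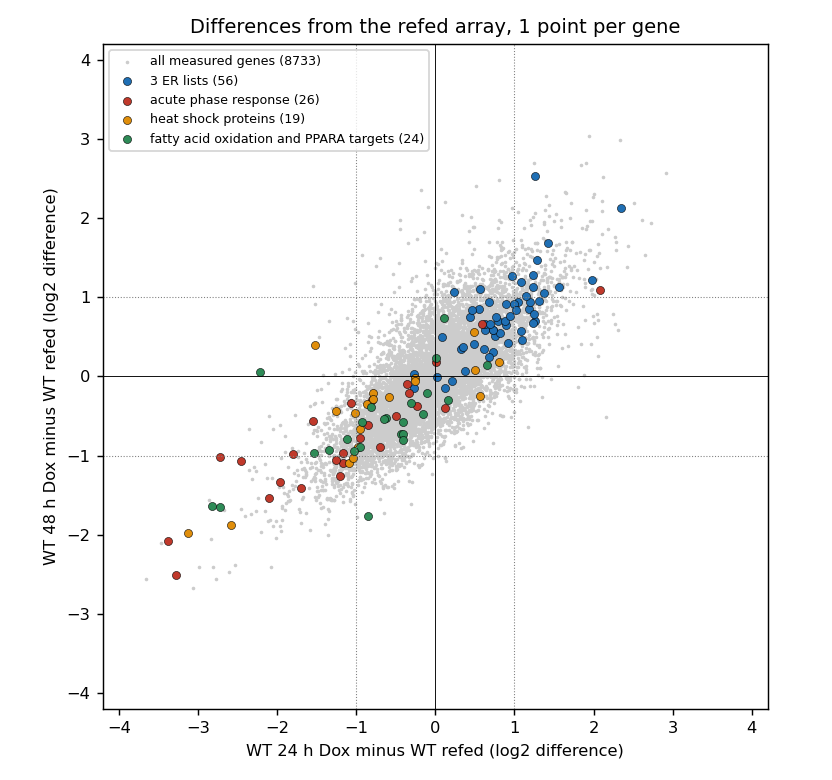
Log2 difference from the refed array at 24 h (horizontal axis) and 48 h of Dox (vertical axis) for each measured gene, with 4 gene groups coloured and dotted lines at 2-fold. Of the 56 ER genes 51 were higher on both Dox arrays, and of the 26 acute phase genes 22 were lower on both.

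The other arrays show where the extreme value lay. Of the 260 genes at least 2-fold higher on the Dox arrays, 208 had both Dox arrays above all 4 other arrays, as did 13.5% of all measured genes, and 146 had the refed array as the lowest of the 6, as did 12.5%. Of the 293 at least 2-fold lower, 220 had the refed array as the highest of the 6, as did 17.7% of all genes, and 154 had both Dox arrays below all 4 others, as did 13% of all genes. These ranks share the arrays that chose the genes and are descriptions. Shares over all genes, here and above, are also the background for the list counts that follow. Where a gene was below the detection level on the dimmer side its ratio is a lower bound, which held for 78 of the 260 and 85 of the 293. In 33 of each the bound itself reached 2-fold.

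Genes of protein folding, translocation and degradation in the ER were higher on the Dox arrays almost without exception. Of 56 measured genes in 3 lists, 51 were higher on both arrays, 1 was lower on both (Sil1, 362 and 383 against 415) and the other 4 differed in sign. Against a background of 39.1% of all genes, 21 of 21 translocation genes, 18 of 21 chaperones and 12 of 14 degradation genes were higher on both. The median log2 difference of the 56 genes was 0.77 (0.85 at 24 h and 0.72 at 48 h), beside 0.01 for all genes, and 11 of them passed 2-fold (background 2.98%) with 0 lower. Both Dox arrays stood above all 4 other arrays for 35 of the 56, beside 13.5% of all genes.

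The known order within this pathway runs from entry into the ER to export or disposal. At the entry, Srp19, a protein of the signal recognition particle, read 290.5 on the 24 h Dox array, 264 on the 48 h Dox array and 132 on the refed array (4.72-fold higher). Srprb, a subunit of the receptor for that particle, read 1809 and 1939 against 901 (2.20-fold higher), and Srp14 read 1834 and 1681 against 879. Sec61g, a subunit of the translocation channel, read 10057 and 10379.6 against 4339.8 (2.38-fold higher). The size for Srp19 depends on the correction, since its log2 difference at 24 h was 2.34 with it and 1.14 without. For each of these 4 genes the refed value lay below both Dox values, as their choice by the 2-fold rule requires. Srp19, Srp14 and Sec61g were also higher on the Dox arrays than on any of the other 4 arrays, and so was Srprb, whose fasted value of 1748 came nearest.

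Among folding factors, Kdelr3, which retrieves lost ER proteins out of the Golgi, read 1068 on the 24 h Dox array, 2452 on the 48 h Dox array and 501 on the refed array (3.72-fold higher), and its 48 h value stood far above its 24 h value. Fkbp11, an ER prolyl isomerase, read 8565 and 5106 against 2248 (3.02-fold higher) and had its higher value at 24 h. Dnajc3, a co-chaperone that also restrains PERK, read 2081 and 2368 against 913 (2.59-fold higher). Hyou1, a large Hsp70-like chaperone, and Sdf2l1, a partner of BiP, were 2.54-fold and 2.32-fold higher. Bhlha15, the secretory-cell transcription factor also known as Mist1, read 702 and 824 against 321 (2.93-fold higher), while the other 3 arrays read 332, 264 and 306. Hspa5, which encodes BiP, has a dim probe here and read 239.8 and 203 against 181, a mean log2 difference of 0.52. Xbp1 itself read 4259 and 5209.7 against 5120.1, so it differed in sign between the times, and the labels do not say where its probe lies relative to the spliced region.

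In ER-associated degradation, the ubiquitin ligase Syvn1 was the gene past 2-fold, with 14399 on the 24 h Dox array, 13352 on the 48 h Dox array and 6168 on the refed array (2.27-fold higher). Edem2 and Derl3, which bring misfolded glycoproteins to that ligase, had mean log2 differences of 0.99 and 0.98, and Vcp, the ATPase that extracts them, one of 0.91. Nploc4 and Erlec1 were the 2 of 14 whose signs differed between the times. On the arrays labelled LIXs, Syvn1 read 4631 at 24 h and 7925 at 48 h, and 10078 on the fasted array.

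The ER stress response element is the promoter sequence through which ATF6 and Xbp1s are known to act together with NF-Y. It was searched as CCAAT followed after 9 bases of any kind by CCACG, on both strands, in RefSeq promoters of mouse build GRCm38.p6, from 250 bases before to 50 after each gene's start, and 7086 of the measured genes matched a promoter by symbol. It was present in 14 of these (0.198%), in 9 of 47 promoters of the 3 ER lists (19.1%) and in 2 of 214 promoters of the genes at least 2-fold higher (0.935%), Dnajc3 and Syvn1, and in 1 of 233 of those at least 2-fold lower (0.429%), Acnat2. The 9 matches of the ER lists follow with 20 bases on either side, read 5′ to 3′ on the gene's strand, with the element in capitals, because these are the members whose promoters carry the letters of the response. Matches on the opposite strand begin with CGTGG and end with ATTGG.
Calr, chr8:84847055-84847113, minus strand: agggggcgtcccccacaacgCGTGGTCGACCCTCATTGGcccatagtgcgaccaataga
Creld2, chr15:88819500-88819558, plus strand: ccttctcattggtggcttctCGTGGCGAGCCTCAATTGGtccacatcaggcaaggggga
Derl3, chr10:75893222-75893280, plus strand: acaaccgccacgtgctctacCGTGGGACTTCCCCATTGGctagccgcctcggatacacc
Dnajc3, chr14:118937807-118937865, plus strand: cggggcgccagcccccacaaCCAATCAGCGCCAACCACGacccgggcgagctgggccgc
Ero1b, chr13:12565662-12565720, plus strand: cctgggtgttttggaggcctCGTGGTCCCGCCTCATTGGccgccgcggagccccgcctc
Hsp90b1, chr10:86705618-86705676, minus strand: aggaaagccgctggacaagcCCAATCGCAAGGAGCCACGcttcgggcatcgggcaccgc
Hspa5, chr2:34772005-34772063, plus strand: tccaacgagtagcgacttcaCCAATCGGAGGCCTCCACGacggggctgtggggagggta
Pdia6, chr12:17266471-17266529, plus strand: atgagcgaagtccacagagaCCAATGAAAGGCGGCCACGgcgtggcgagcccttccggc
Syvn1, chr19:6046512-6046570, plus strand: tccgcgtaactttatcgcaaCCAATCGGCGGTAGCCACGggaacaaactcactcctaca

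Of these 9 genes, all were higher on both Dox arrays, as were 51 of the 56 in the lists as a whole. Their mean log2 differences ran from 0.34 for Calr, the lectin chaperone calreticulin, to 1.38 for Dnajc3. Creld2 read 3016 and 4334 against 2071 (0.83), and Pdia6, a disulfide isomerase, 359 and 313 against 266 (0.48). Hsp90b1, the ER Hsp90, read 6364 and 6201 against 4163 (0.60). Carriers of the element outside the ER lists were not uniform. Acnat2 was 3.92-fold lower, Acacb differed in sign between the times, and Alg12 was higher on both Dox arrays. Pan2 and Spats2l also carried it, and their values are not described here. The whole 300-base promoters of the ER genes past 2-fold are given for context. These are Dnajc3 at chr14:118937682-118937981 and Syvn1 at chr19:6046326-6046625, both on the plus strand. In them the element starts 105 and 44 bases before the gene's start. A match is a description of letters and shows no binding.
Dnajc3 promoter: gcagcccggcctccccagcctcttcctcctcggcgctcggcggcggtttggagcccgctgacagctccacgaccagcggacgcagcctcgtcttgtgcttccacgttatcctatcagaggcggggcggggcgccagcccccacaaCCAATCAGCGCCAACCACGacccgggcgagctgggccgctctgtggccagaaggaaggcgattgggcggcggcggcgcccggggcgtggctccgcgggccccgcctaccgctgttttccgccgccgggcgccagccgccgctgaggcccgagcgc
Syvn1 promoter: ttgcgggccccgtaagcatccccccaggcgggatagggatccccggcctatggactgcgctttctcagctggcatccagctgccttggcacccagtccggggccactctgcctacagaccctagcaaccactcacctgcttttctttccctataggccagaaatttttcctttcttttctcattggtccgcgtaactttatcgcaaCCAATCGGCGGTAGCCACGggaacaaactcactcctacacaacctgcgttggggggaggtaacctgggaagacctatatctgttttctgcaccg

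Genes that build the glycans attached in the ER were also higher on the Dox arrays. In a list of N-glycan, dolichol and glycosylphosphatidylinositol precursor genes, which was drawn up after values had been seen, 36 of 45 were higher on both arrays and 4 lower, with a median log2 difference of 0.59, and 7 passed 2-fold with 0 lower. Gmppb, which makes the mannose donor GDP-mannose, read 278 on the 24 h Dox array, 239 on the 48 h Dox array and 114 on the refed array, the latter below the detection level, and was at least 4.55-fold higher. Its partner subunit Gmppa read 589.9 and 474 against 253 (2.72-fold higher). Gmds, which turns GDP-mannose toward GDP-fucose, read 379 and 293 against 161 (3.51-fold higher). Dhdds, a subunit of the enzyme that makes the dolichol precursor, read 343 and 335 against 159.6 (3.70-fold higher), but of its 2 other detected probes only 1 had the same sign. Dpm2, a subunit of dolichol-phosphate-mannose synthase, Mogs, the glucosidase that starts glycan trimming, and Gfpt1, the entry enzyme of hexosamine synthesis, were 2.91-fold, 2.89-fold and 2.51-fold higher. The 4 genes lower on both arrays were Pigk, Dolk, Alg10b and Stt3b, with mean log2 differences from -0.79 to -0.23.

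Genes of transport between ER and Golgi were mostly higher too, with smaller differences. Of 44 measured genes of the COPII and COPI coats and their cargo receptors, a list also drawn up after values had been seen, 34 were higher on both Dox arrays and 4 lower, with a median log2 difference of 0.51. The 5 past 2-fold were Kdelr3, Tmed3, Arfgap1, Tmed9 and Mia3. Tmed3, a p24 cargo receptor, read 1082 and 708 against 297 (3.82-fold higher), and the abundant Tmed9 of the same family read 5861 and 5993 against 2803 (2.15-fold higher). Mia3, the receptor that loads collagen into COPII carriers, read 271 and 294 against 182. The median was 0.68 at 24 h and 0.32 at 48 h.

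Target genes of PERK, ATF4 and CHOP were less uniform. Of 16 measured genes 11 were higher on both Dox arrays and 3 lower, with a median log2 difference of 0.56 (0.46 at 24 h and 0.87 at 48 h), and 3 were higher and 1 lower at 2-fold. Aldh18a1, which starts proline synthesis from glutamate, read 1176 on the 24 h Dox array, 788 on the 48 h Dox array and 269.6 on the refed array (4.91-fold higher). Nupr1, a small stress-induced chromatin protein, read 1210.0 and 1219 against 381 (3.89-fold higher), with nearly equal values on the Dox arrays. Eif2ak3, the gene of PERK itself, read 169.9 and 250.5 against 130.1 (2.96-fold higher), with the refed value at the edge of detection. Asns and Psat1, which make asparagine and serine, had mean log2 differences of 1.09 and 1.13, and Atf4 one of 0.68. Ddit4, an inhibitor of mTORC1, went the other way with 211 and 227 against 450.0 (2.85-fold lower), and Trib3 and Cebpg were also lower on both arrays. Ddit3, which encodes CHOP, read 373 and 938 against 497, below refed at 24 h and above it at 48 h.

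**Figure D2:**
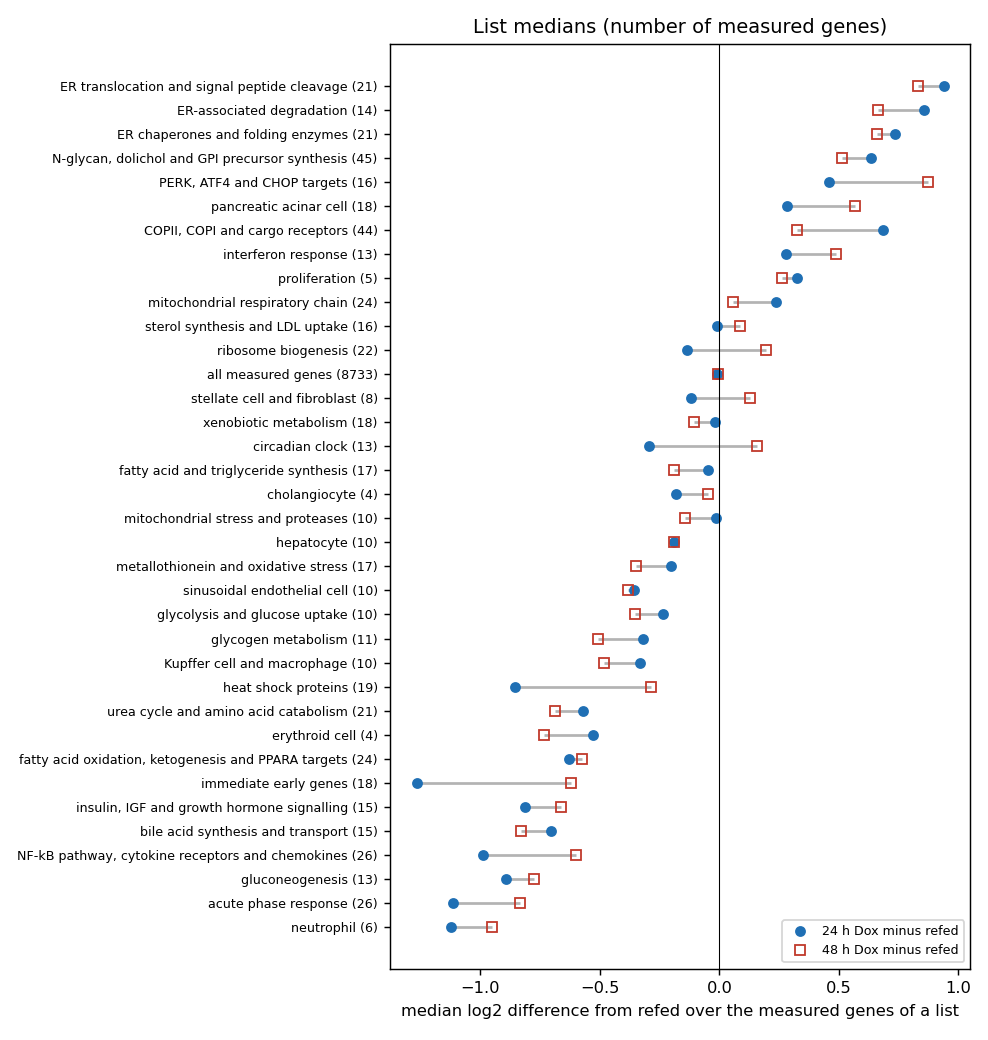
Median log2 difference from the refed array over the measured genes of each list, at 24 h (filled circles) and 48 h of Dox (open squares), with the number of measured genes. The ER translocation list lies at 0.94 and 0.83 and the acute phase list at -1.11 and -0.83.

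Acute phase genes were the pathway list with the lowest median, -0.96. Of 26 measured genes 22 were lower on both Dox arrays than on the refed array, beside 39.9% of all genes. At 2-fold 10 of them were lower (background 3.36%), and the refed array was the highest of the 6 for 17 (background 17.7%). Saa3, a serum amyloid that is raised in inflammation, read 964 on the 24 h Dox array, 1575 on the 48 h Dox array and 8512 on the refed array (7.41-fold lower), and the other 3 arrays read 638, 843 and 1354. Lcn2, lipocalin 2, which binds bacterial siderophores, read 1746 and 4169 against 17319.7 (6.64-fold lower). Orm2, an orosomucoid, Lbp, the lipopolysaccharide-binding protein, and Cd14, its receptor partner, were 3.52-fold, 3.13-fold and 3.65-fold lower. Socs3, the feedback inhibitor of STAT3 signalling, read 349 and 761 against 1496 (3.39-fold lower), and Il6ra, the interleukin 6 receptor chain, 283 and 325 against 709 (2.93-fold lower). Serpina3n and Apcs read 10033 and 9668 against 22955 and 2315 and 2427 against 5065, and Il1r1 was at least 1.68-fold lower. All of these genes had both Dox values below the refed value, which the 2-fold rule that chose them requires.

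Other acute phase genes were within 2-fold on at least 1 Dox array or lay on the opposite side. Saa1, the main serum amyloid of the mouse acute phase, read 18476 and 30682 against 38602, with a mean log2 difference of -0.70, and Saa2 one of -1.05. Probes of these near-identical genes may not separate them. Fgg, a fibrinogen chain, was higher on both Dox arrays (0.63), and Itih4 differed by 0.10. Hamp2, a hepcidin gene, was past 2-fold on the higher side with 6828 and 3481 against 1688, whereas Hamp, the hepcidin that controls iron uptake, differed in sign with 19289 and 13538 against 17796.

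NF-kB pathway genes, cytokine receptors and chemokines, in a list drawn up after values had been seen, were lower on both Dox arrays for 17 of 26 and higher for 6, with a median log2 difference of -0.72, and 10 were at least 2-fold lower. The median was -0.39 without background correction and -0.25 over 37 genes without the filter on dim probes, and it was -0.72 over the 16 genes detected on all 3 arrays. Cxcl1, a chemokine for neutrophils, read 801 on the 24 h Dox array, 1909.8 on the 48 h Dox array and 7925 on the refed array (6.91-fold lower). Bcl3, a co-regulator of NF-kB, read 169.9 and 182 against 617 (6.34-fold lower). Nfkbia, the inhibitor IkBa, read 222 and 268 against 465 (2.47-fold lower), and Tnfaip3, the inhibitor A20, 106 and 129 against 244 (at least 4.16-fold lower). Tlr2 and Il13ra1 were 2.74-fold and 2.75-fold lower, and for Map3k14 and Map3k8 the bounds were at least 2.36-fold and at least 2.24-fold. Il1b and Relb were dim, with bounds of at least 1.81-fold and at least 1.57-fold. The refed array was the highest of the 6 for 16 of the 26, beside 17.7% of all genes.

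Some neutrophil markers were also lower on the Dox arrays. Of 12 listed markers 6 were measured, of which 4 were lower on both Dox arrays and 2, Mpo and Csf3r, were higher. Relative to its mean over the 6 arrays Csf3r lay at 0.30 and 0.57 on the Dox arrays and -0.40 on the refed array. Of the 6 only S100a8 was detected on all 3 arrays. The side of a dim marker could therefore be set by the array on which it passed the detection level. The median of the 6 was -1.04, and that of the 11 with a named probe was 0.025 without the filter on dim probes. The summed intensity of the 6 was 841 and 987 on the Dox arrays, 2195 on the refed array and 835 to 881 on the others. S100a8, an abundant neutrophil protein, read 199 on the 24 h Dox array, 320.3 on the 48 h Dox array and 1436 on the refed array (8.64-fold lower), and its partner S100a9 read 127 and 135 against 204 (at least 2.86-fold lower). Retnlg was at least 2.52-fold lower. The defining granule genes Mpo and Elane read 145 and 143 against 123 and 122 and 122 against 136, near the detection level throughout. Fewer cells of a type and less RNA per cell cannot be told apart in bulk liver, and the part of neutrophils in the acute phase and NF-kB values was not tested.

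An NF-kB site, searched as GGGA followed after 2 bases of any kind by TTCC, on both strands, was present in 116 of 7086 promoters (1.64%), in 7 of 233 promoters of the genes at least 2-fold lower and in 5 of 214 of those at least 2-fold higher (2.34%). It was in 2 of 21 promoters of the NF-kB list (9.52%) and in 0 of 22 of the acute phase list. The 7 lower genes were Cxcl1, Cxcl10, Nfkbia, Hpn, Krt23, Rap1gap and Tfr2. The matches of the 2 chemokine genes and of the inhibitor gene Nfkbia follow, because these are the members described here, in the same layout, with the site in capitals.
Cxcl1, chr5:90891154-90891203, plus strand: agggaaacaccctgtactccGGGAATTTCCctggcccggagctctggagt
Cxcl10, chr5:92349019-92349068, minus strand: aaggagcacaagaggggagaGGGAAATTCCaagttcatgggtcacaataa
Nfkbia, chr12:55492647-55492696, minus strand: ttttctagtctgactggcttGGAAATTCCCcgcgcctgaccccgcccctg

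Immediate early genes, which answer growth factors and stress within minutes, were mostly higher on the refed array, and more so against 24 h than against 48 h of Dox. Of 18 measured genes 11 were lower on both Dox arrays (background 39.9%) and 2 were higher (background 39.1%). The medians were -1.27 at 24 h and -0.62 at 48 h. The median of the mean differences was -0.66, and -0.33 over 25 genes without the filter on dim probes. The 5 past 2-fold were Gadd45b, Zfp36, Gadd45g, Egr1 and Egr2. Egr1, a zinc-finger transcription factor, read 979 on the 24 h Dox array, 1917 on the 48 h Dox array and 4032 on the refed array (3.10-fold lower). Zfp36, which destabilises cytokine mRNAs, read 461 and 839.8 against 1928 (3.50-fold lower). Gadd45b was at least 3.81-fold lower and Gadd45g 3.29-fold lower. Fos read 133 and 195 against 249 and Junb 320.1 and 683 against 1139, both lower on the Dox arrays but within 2-fold of refed at 48 h. Ccn1 was the gene higher at 2-fold, with a bound of only 1.17-fold.

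Cytosolic and mitochondrial heat shock genes followed the same direction. Of 19 measured genes 14 were lower on both Dox arrays and 3 higher, with medians of -0.86 at 24 h and -0.29 at 48 h. The refed array was the highest of the 6 for 10 of them, beside 17.7% of all genes. Dnajb1, a co-chaperone of Hsp70 and a classical heat shock target, read 849.9 on the 24 h Dox array, 1764 on the 48 h Dox array and 6680.1 on the refed array (5.86-fold lower). Hspa1a, the inducible Hsp70, read 149 and 185 against 429.7 (4.70-fold lower), and its near-identical copy Hspa1b 136 and 139 against 177, which the probes may not separate. Hspd1, the mitochondrial chaperonin, and Fkbp4, an Hsp90 co-chaperone, read 1923 and 1911 against 3987 and 1098 and 1105 against 2163 (2.13-fold and 2.05-fold lower). Hspb1 read 141 and 274 against 231, below refed at 24 h and above it at 48 h.

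A heat shock element, searched as GAA, TTC and GAA with 2 bases of any kind between neighbours, on both strands, was present in 40 of 7086 promoters (0.564%), in 4 of 16 promoters of the heat shock list (25%), in 2 of 233 of the genes at least 2-fold lower (0.858%), Hspd1 and Acnat2, and in 0 of 214 of those at least 2-fold higher. The matches of the heat shock list follow, with the element in capitals. Hspd1 and Hspe1, the partner chaperonin subunits, are divergent neighbours. Their matches, on opposite strands, overlap in part but are not the same bases.
Chordc1, chr9:18292243-18292295, plus strand: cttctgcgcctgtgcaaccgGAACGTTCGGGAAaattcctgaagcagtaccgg
Hspd1, chr1:55088039-55088091, minus strand: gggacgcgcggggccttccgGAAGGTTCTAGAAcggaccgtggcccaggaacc
Hspe1, chr1:55088044-55088096, plus strand: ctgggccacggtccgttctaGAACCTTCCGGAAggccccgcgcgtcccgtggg
Hsph1, chr5:149636268-149636320, minus strand: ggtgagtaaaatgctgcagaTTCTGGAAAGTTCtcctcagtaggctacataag

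Hspd1 differed by a mean log2 value of -1.09 and Hspe1, whose match overlaps that of Hspd1, by -0.14. Hsph1 differed by -0.81 and Chordc1 by -0.16. All 4 were lower on both Dox arrays, by sizes that ranged from near 0 to past 2-fold.

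**Figure D3:**
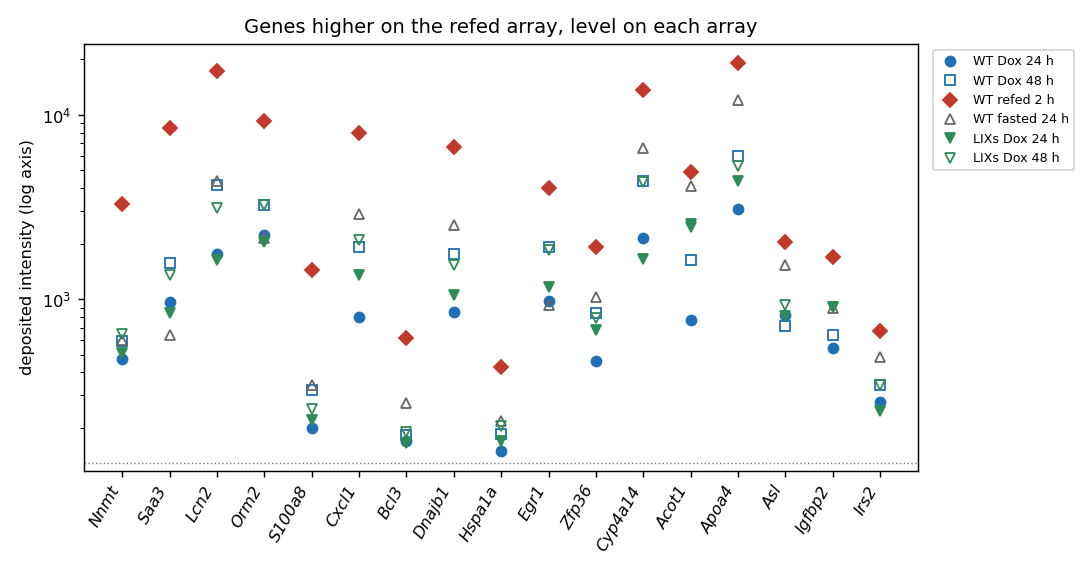
Deposited intensity (log axis) of 17 genes that were at least 2-fold higher on the refed array than on both Dox arrays, shown on each of the 6 arrays with a dotted line at the detection level of 129. The refed value is the highest of the 6 for every gene shown.

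Fasting-linked metabolic genes were mostly higher on the refed array than on the Dox arrays, but not all of them were high on the fasted array. Of 24 measured genes of fatty acid oxidation, ketogenesis and other PPARA targets 19 were lower on both Dox arrays and 3 higher, with a median log2 difference of -0.60. Cyp4a14, a fatty acid hydroxylase and sensitive PPARA target, read 2152 on the 24 h Dox array, 4399.6 on the 48 h Dox array and 13634 on the refed array (4.55-fold lower), and 6574 on the fasted array. Acot1, an acyl-CoA thioesterase, read 768 and 1636 against 4878 (4.69-fold lower) and 4103 on the fasted array. These were the 2 past 2-fold. Ehhadh and Pex11a, both peroxisomal, and Hadha, of mitochondrial oxidation, had mean log2 differences of -1.25, -1.14 and -0.98. Pdk4, which spares pyruvate in fasting, read 161 and 422 against 410.3, lower at 24 h and about equal at 48 h. Ppara itself read 222 and 186 against 208.

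Glucose production and hormone signalling genes lay on the same side. In gluconeogenesis 9 of 13 measured genes were lower on both Dox arrays and 1 higher, with a median log2 difference of -0.78. G6pc, the glucose-6-phosphatase, read 1307 and 1782 against 2983 and Pck1, the phosphoenolpyruvate carboxykinase, 303 and 288 against 429.5, mean log2 differences of -1.01 and -0.73. Sik1, a kinase that restrains the gluconeogenic programme, was the gene past 2-fold, with 143 and 153 against 238 (2.65-fold lower). In the insulin, IGF and growth hormone list 12 of 15 were lower on both and 1 higher, with a median of -0.70 and 5 past 2-fold. Igfbp2, an IGF-binding protein, read 540.2 on the 24 h Dox array, 635 on the 48 h Dox array and 1702 on the refed array (3.27-fold lower). Irs2, the insulin receptor substrate, read 278 and 343 against 668 (2.67-fold lower) and the receptor Insr 569.6 and 650.1 against 1246 (2.24-fold lower). Cish, a STAT5 target, and Txnip, an inhibitor of glucose uptake, were 3.06-fold and 2.70-fold lower. Igfbp1, raised in fasting, read 132 and 219 against 293, with the larger gap at 24 h.

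Nitrogen disposal and bile acid genes were lower on the Dox arrays as well. Of 21 measured genes of the urea cycle and amino acid catabolism 15 were lower on both and 4 higher, with a median log2 difference of -0.59. Asl, the argininosuccinate lyase, read 824 on the 24 h Dox array, 716 on the 48 h Dox array and 2041 on the refed array (2.89-fold lower), and Ass1 and Cps1, which act before it in the cycle, differed by -1.11 and -1.03. Hpd, of tyrosine breakdown, read 2713 and 2232 against 6432 (2.68-fold lower), and Slc7a2, a transporter of arginine, 177 and 204 against 395 (3.13-fold lower). Asns was the member highest on the Dox arrays relative to refed. Of 15 genes of bile acid synthesis and transport 12 were lower on both and 2 higher, with a median of -0.71. Abcb4, the phospholipid exporter of bile, read 1269.7 and 1634 against 3750.1 (2.72-fold lower), and Cyp7a1, the rate-limiting enzyme of the classical pathway, 2509 and 2019 against 3338 (-0.59). For 9 of the 15 both Dox arrays lay below all 4 other arrays, as for 13% of all genes.

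**Figure D4:**
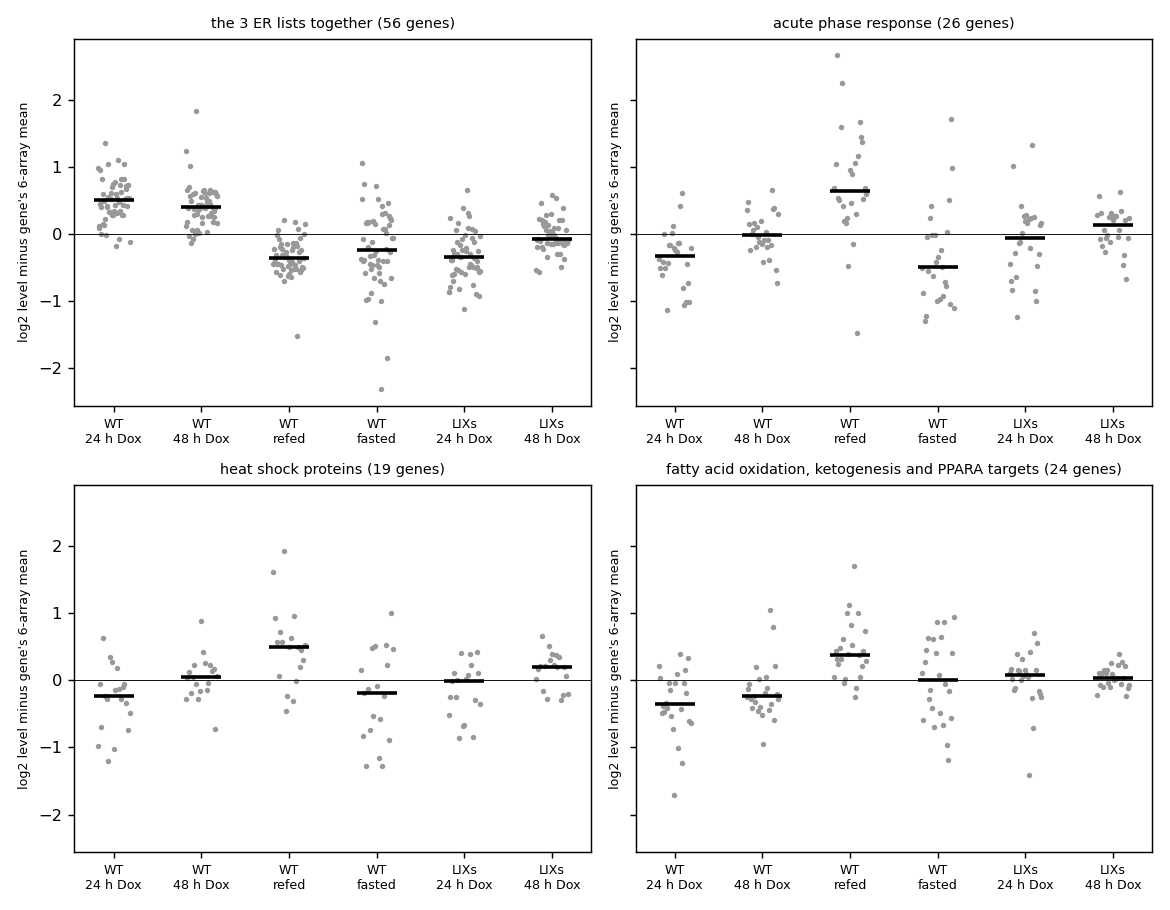
Log2 level of each gene minus its mean over the 6 arrays, for 4 gene groups, with a point per gene and a bar at the median. The ER median is 0.50 and 0.40 on the Dox arrays and -0.36 on the refed array, and the acute phase median is 0.64 on the refed array and between -0.50 and 0.13 on the others.

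Levels set against each gene's mean over the 6 arrays show how the same groups stood elsewhere. The median of the 56 ER genes was 0.50 and 0.40 on the Dox arrays, -0.36 on the refed array, -0.24 on the fasted array, and -0.34 and -0.08 on the arrays labelled LIXs at 24 h and 48 h. By these medians the refed array was close to the fasted and the 24 h LIXs arrays, and the arrays labelled WT on Dox stood apart upward. The summed intensity of the 56 genes was 109377 on the refed array, 139260 on the fasted array and 108615 on the 24 h LIXs array. Single genes differed more between refed and fasted, in both directions. Calr lay at -0.23 on the refed and 1.06 on the fasted array, and Selenok at -0.13 and -2.31. The acute phase median was 0.64 on the refed array and -0.50 on the fasted array, and the heat shock median 0.50 and -0.19, so there the refed array stood apart. The median of the fatty acid oxidation list was 0.38 on the refed array, 0.01 on the fasted array and -0.36 and -0.24 on the Dox arrays.

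Several lists had few or no genes past 2-fold. Over all measured genes 39.1% were higher on both Dox arrays and 39.9% lower. Glycogen metabolism had 9 of 11 genes lower on both Dox arrays and a median log2 difference of -0.43, and only Ppp1r3g, a subunit that directs phosphatase to glycogen, was past 2-fold (174 and 191 against 442, 3.92-fold lower). Glycolysis had 7 of 10 lower, 2 higher and a median of -0.39, from -1.02 for Ldha to 1.15 for Slc2a2. Relative to its mean over the 6 arrays Slc2a2 lay at 1.81 at 24 h, -0.0001 at 48 h and -0.25 on the refed array. Fatty acid and triglyceride synthesis had 5 of 17 higher and 8 lower, a median of -0.11 and 0 past 2-fold in either direction. Srebf1, its insulin-responsive regulator, was dim with 137 and 134 against 149, whereas Thrsp and Scd1, lipogenic genes, were higher on both Dox arrays with 2934 and 1351 against 859.9 and 5201 and 3426 against 2866. Sterol synthesis had 7 of 16 higher and 4 lower, a median of 0.07, and Hsd17b7 as the gene past 2-fold (563 and 584 against 1920.5, 3.81-fold lower). Clock genes had 5 of 13 higher and 6 lower and a median of -0.09, which was 0.09 with undetected values at their bound.

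Xenobiotic genes were split, with 5 of 18 higher, 8 lower and a median of 0.00. Sult1d1, Cyp2b10 and Cyp3a13 were 3.80-fold, 3.19-fold and 2.69-fold lower, and Cyp2a4 was 2.64-fold higher. The metallothionein and oxidative stress list had 9 of 17 lower and a median of -0.27, with Hmox1, haem oxygenase, at 184 and 318 against 755 (4.63-fold lower) and Mt2 3.01-fold lower, while Srxn1 with 1031 and 1587 against 684 and Prdx1 with 13634 and 10478 against 7455 were higher on both Dox arrays. Interferon response genes had 8 of 13 higher and 3 lower. Usp18 and Isg15, which belong to the same ubiquitin-like system, were 3.43-fold and 3.01-fold higher, and Cxcl10 and Irf1 3.27-fold and 2.40-fold lower. The medians were 0.17 for 24 genes of the respiratory chain, 0.06 for 22 of ribosome biogenesis, -0.13 for 10 mitochondrial stress genes and 0.29 for 5 proliferation genes, with 0 past 2-fold in these lists.

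Markers of other liver cells differed by less, with exceptions. The 10 hepatocyte markers had a median log2 difference of -0.19 and 0 past 2-fold. Kupffer cell and macrophage markers were lower on both Dox arrays for 7 of 10, with a median of -0.47 (-0.18 without background correction) and summed intensities of 2745 and 2738 against 3630, but Marco, a scavenger receptor, was at least 1.88-fold higher, also as a bound. Sinusoidal endothelial markers were lower for 7 of 10, with a median of -0.39 and sums of 6084 and 6063 against 8850. The part of these cells in the inflammatory lists was not tested. Of 4 cholangiocyte markers Sox9 read 275 and 391 against 755 (2.84-fold lower), while Krt8 and Krt18, keratins that hepatocytes also express, were higher by 0.88 and 0.75. The 4 erythroid markers were all lower, with a median of -0.59, and the 8 stellate cell markers had a median of 0.00. The 3 lymphocyte markers lay near the detection level. Of the 2 adipocyte markers Lep was dim, and Car3, which read 1721 and 1952 against 1696, was higher on both Dox arrays by 0.12, and Myl1, the measured muscle marker, had a bound of at least 1.33-fold.

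Pancreatic acinar genes were higher on both Dox arrays for 13 of 18 and lower for 1, with a median log2 difference of 0.53 (0.21 without background correction). The refed array was the lowest of the 6 for 9 of them, beside 12.5% of all genes. Clps, the colipase, read 226 and 275 against 152 (2.63-fold higher), and Cela1, an elastase, 2463 and 1490.1 against 731 (2.85-fold higher). Summed over the 18 genes the intensity was 16118 and 15976 on the Dox arrays, 13782 on the refed array and 38845 on the array labelled LIXs at 24 h. The ER lists, whose genes acinar cells also express strongly, were lower on that LIXs array than on the Dox arrays, with summed intensities of 108615 against 193926 and 189191. The part of acinar RNA in the ER values was not tested.

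Ranked over all measured genes by the smaller of the differences, the 20 highest on the Dox arrays began with Gmppb, at chr9:108049239-108051923 of GRCm38.p6. Its smaller log2 difference of 2.58 rests on a refed value below the detection level. The ranking did not use bounds, and the bound for Gmppb was at least 4.55-fold by the mean of both times. Next came 6430548M08Rik at chr8:120114152-120165307, detected on all 3 arrays, with a smaller log2 difference of 2.33. Guca1a at chr17:47394557-47413514 followed. 6430548M08Rik read 1575 and 2436 against 388 (6.32-fold higher), and Guca1a, a guanylate cyclase activator known from photoreceptors, 772 and 641 against 213 (5.09-fold higher). Besides those described, the list held Ptpre, a tyrosine phosphatase, with 593 and 587 against 209 (4.29-fold higher), Anxa2, an annexin, with 3108 and 5315 against 896 (4.94-fold higher), Tapbpl, a tapasin-like chaperone of antigen presentation, with 1113 and 685 against 247 (5.04-fold higher), and Ica1, with 602 and 596 against 222 (3.93-fold higher). P3h1, a collagen prolyl hydroxylase of the ER, and Ccdc134 were 3.75-fold and 4.06-fold higher. Hid1 read 277 and 319 against 139 (4.46-fold higher) and Pdrg1 326 and 402 against 147 (4.99-fold higher). The sizes for Hid1, Pdrg1 and P3h1, whose refed values lay near the detection level, depend on the correction. Without it the log2 differences at 24 h and 48 h were 0.996 and 1.201 for Hid1 and 1.150 and 1.452 for Pdrg1. For P3h1 they were 0.943 and 0.938. For Tarbp2, Frk, 1810062G17Rik, Thoc3 and Tpm2 the bounds ran from at least 2.57-fold (Tarbp2) to at least 3.66-fold (Tpm2). The other detected probe of Tarbp2 did not have the same sign.

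The 20 most strongly lower genes were led by Nnmt at chr9:48538002-48607655, S100a8 at chr3:90669071-90670034 and Bcl3 at chr7:19808462-19822824. Nnmt, which methylates nicotinamide, read 474 on the 24 h Dox array, 589.8 on the 48 h Dox array and 3267 on the refed array (7.29-fold lower) and between 507 and 647 on the other arrays, so the refed array stood alone. Eif4ebp3, a translation repressor, read 379 and 522 against 2368 (6.50-fold lower), with 1646 on the fasted array. Cyp4a12b, Acnat2, Cldn14 and Ppp1r1b were likewise high on the refed and the fasted array, with fasted values of 461, 1136, 276 and 565 beside refed values of 331, 1201, 274 and 453. Nox4, an oxidase that makes hydrogen peroxide, and Pde6h were at least 5.58-fold and at least 4.73-fold lower. Prepl read 237 and 252 against 969, but its other detected probe did not have the same sign. Apoa4, an apolipoprotein outside the lists and named after its values were seen, read 3071 and 5955 against 19019 (4.53-fold lower) and 12095 on the fasted array. Of the 40 ranked genes 13 had another detected probe, and for 10 of these every such probe had the same sign.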

How the data were processed

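The intensities used are those the authors deposited, on a linear scale, for 45281 probes and 6 arrays. Per the submitters' processing notes GenomeStudio was used, with no version or normalization stated there. The sorted values of the arrays differed by at most 0.0199 (log2), so they were taken as already normalized between arrays. The intensities were not background-subtracted, with a mode of 109 and an SD of 7.65 of the values mirrored about it. Left unused was a deposited table with 12 columns, 6 of signal and 6 of detection p-values, since none is named for a sample.

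These background values entered limma's normexp correction (limma 3.58.1, R 4.3.3), followed by an offset of 16, quantile normalization and log2. The detection level of 129 leaves 0.276% of the mirrored background above it. In the array's annotation 34885 probes have 1 gene name, and each gene was represented by its probe with the highest mean over the 6 arrays. A ratio with an undetected dim side is given as a lower bound, where the dim side takes its own signal or the lowest detected signal, whichever is higher. The number of arrays, 1 per group, limits the precision, so lists were described by counts and medians. The calculation was tested on simulated data, with known changes planted in bright probes and only background noise between arrays. That test does not cover changes of dim genes or variation between samples.

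The genes named are the 20 most extreme in each direction by the smaller difference, list members past 2-fold, up to 4 of the most extreme members of a list in each direction otherwise, and members that define a list. Of 626 symbols in 35 lists 576 had a named probe and 472 were measured. A further 3 lists were added after values were seen. The members, lists and rules were all chosen with earlier results of these data known. Some members named beside these, such as those whose signs differed between the times, were chosen after their values were seen. Alternatives covered the background correction, the offset, the quantile step, the choice of probe, the detection filter, the mean of both differences and each Dox array alone, and a detection level of 200 was added after seeing the data.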

Additional observations from a re-analysis of the deposited data

Results flagged for a closer look

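Of all measured genes 2 lay at least 2-fold from the refed array in opposite directions at the 2 times on Dox. Atf3, a stress-induced transcription factor, read 163 and 546 against 298, which is a log2 difference of -1.54 at 24 h and 1.14 at 48 h. Rassf1, a tumour suppressor that binds microtubules, read 324 and 1154 against 559, with -1.01 at 24 h and 1.19 at 48 h. On the arrays labelled LIXs, Atf3 read 169 at 24 h and 230.1 at 48 h, and Rassf1 314 and 416. Each time has 1 array, and the difference between the times was not tested.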

How the results depend on the processing

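Arrays give no depth, and signal over background sets the limit, since 6594 of the 8733 genes were detected on all 3 arrays. The counts of 260 higher and 293 lower genes were 71 and 102 without background correction and 116 and 149 with an offset of 50, all of them among the original genes. By the mean difference they were 441 and 455, and with either Dox array left out 538 to 569 higher and 500 to 565 lower. Without the quantile step they were 261 and 293, with the mean of detected probes 219 and 263, among genes detected on all 3 arrays 182 and 208, and at the added detection level of 200 they were 189 and 211. The counts of genes on the same side of both arrays were 6918 higher and 7053 lower without a filter on dim probes and 2067 and 2106 at the level of 200. Of 114 named genes 68 moved by more than the SD between their 24 h and 48 h differences without background correction, 52 with an offset of 50 and 26 with the mean of detected probes, and 22 list medians moved without background correction. None of these genes changed sign under the settings run, of which detection on all 3 arrays kept 93 and the level of 200 kept 102. Most of these settings could hardly change a sign. Background correction, the offset and the quantile step left the same-side counts at 3415 higher and 3487 lower, and the detection filters do not alter values. A gene on the same side of both Dox arrays also keeps its sign when either is left out. The mean of detected probes was the setting that could change a sign. The neutrophil median was 0.025 without the filter on dim probes, the lymphocyte median 0.18 at a stricter detection level, and the adipocyte median 0.12 among genes detected on all 3 arrays and at the level of 200, and 0.0555 without a filter. The causes were not tested. No paired analysis was possible because each group has 1 array.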

Other observations

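Some genes outside the lists, named after their values were seen, were also at least 2-fold apart from refed on both Dox arrays. Secretory genes among the higher ones were Erp29, a folding factor of the ER, with 9661 and 8894 against 3890.5 (2.42-fold higher), Calu, an ER calcium-binding protein, with 1291 and 1586 against 645, and Serp1, which stabilises new membrane proteins, with 3471 and 3489 against 1748. Slc39a7, a zinc transporter of the ER, read 1009 and 809 against 443. The transcription factor genes Atf6b and Creb3l2, whose products are anchored in the ER membrane, read 632 and 675 against 343 and 218 and 247 against 153. Ccnd1, which encodes cyclin D1, read 3313 and 1580.2 against 606 (4.26-fold higher), with its highest value at 24 h. Srm, which makes spermidine, read 1932 and 2526 against 850.3 (2.79-fold higher), and the transfer RNA synthetase genes Nars and Vars read 853 and 858 against 417 and 479 and 661 against 273.

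Among the genes at least 2-fold lower on both Dox arrays, Tfrc, the transferrin receptor, read 139 and 168 against 310.2 (3.71-fold lower). Pnpla2, the lipase that starts triglyceride breakdown, read 956 and 1189 against 2441 (2.41-fold lower), and 2106 on the fasted array. Rgs16, a regulator of G-protein signalling, read 534 and 775 against 2417 (4.24-fold lower). Fkbp5, a target of the glucocorticoid receptor, read 277 and 350.0 against 641 and 644 on the fasted array, so its refed and fasted values were close.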
